A study of Mus musculus with 768 samples.

Results

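Tecta, Tectb, Otoa, Otog and Otogl are 5 of the 52636 genes counted in single cells from mouse cochlear organoids, and their members are defined by symbol, a rule that uses no measured value, although the group was proposed with results of these data known. All 5 were listed in both count tables and all 5 passed the filter on low counts, so none is missing below. Every cell came from mice carrying Fgfr3-CreERT2, Ai14-tdTomato and Sox2-GFP, that is, a tamoxifen-inducible Cre under Fgfr3, a Cre-activated red reporter and a green reporter of Sox2. Greater epithelial ridge cells, the columnar epithelium medial to the hair cells, were taken on postnatal day 2, enriched by flow cytometry and grown into organoids. All cultures received the same DMEM/F12 medium with N-2, B-27, ampicillin, the growth factors IGF1, EGF and FGF2, 2-phospho-L-ascorbic acid, valproic acid, the TGFβ receptor inhibitor 616452 and CHIR99021, which inhibits GSK3. By the labels the groups differ in the length of culture: Day 1 (3 cultures of 55, 90 and 47 cells), Day 3 (3 cultures of 88, 82 and 85 cells) and Day 7 (5 cultures of 41, 40, 80, 80 and 80 cells), with a replicate number of the labels taken here as 1 culture. They also differ in how their cultures fall on the deposited tables, as given below. The organoids were broken up with trypsin, and cells drawn one by one into a glass pipette were made into SmartSeq2 libraries, which cover whole transcripts and carry no molecular identifiers. No source used here says whether replicates came from separate animals, so the p-values measure only the spread between these cultures.

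The tectorial membrane is the sheet of extracellular matrix that lies over the hair cells and against which their bundles are deflected by sound. Its non-collagenous matrix is built from α-tectorin (Tecta) and β-tectorin (Tectb), which share a zona pellucida domain and form a striated sheet around collagen fibrils. Otogelin (Otog) and otogelin-like (Otogl) are large secreted relatives of mucins and von Willebrand factor found in the acellular membranes of the inner ear. Otoancorin (Otoa) is a cell-surface protein related to mesothelin and stereocilin that attaches the tectorial membrane to the interdental cells. Cells of the greater epithelial ridge secrete much of this matrix around birth.

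On the mouse assembly GRCm38 with the GENCODE M21 annotation, Tecta (ENSMUSG00000037705.13) is on chromosome 9 from 42329619 to 42399929 on the minus strand, with 24 exons in its longest coding transcript of 7338 bases. Tectb (ENSMUSG00000024979.13) is on chromosome 19 from 55180733 to 55196313 on the plus strand, with 10 exons and 2725 bases. Otoa (ENSMUSG00000034990.15) and Otog (ENSMUSG00000009487.10) are both on the plus strand of chromosome 7, from 121081650 to 121163097 with 3773 bases and from 46240987 to 46311434 with 10043 bases. Otogl (ENSMUSG00000091455.4) is on the minus strand of chromosome 10 from 107760531 to 107912134, with 58 exons and 8763 bases. An antisense gene, Gm47629, overlaps an exon of Tecta, and whether the counting used strand is not given in the sources used here. It had 3742 reads beside the 940490 of Tecta.

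Promoters are shown for the 2 genes called lower on Day 7, Tectb and Otog, beside that of Tecta, the partner that was not called. Each is a RefSeq window (GRCm38.p6) of 250 bases before the start site and 50 from it, printed on the strand of the gene. These are chr19:55180476-55180775 on the plus strand, chr7:46240737-46241036 on the plus strand and chr9:42399898-42400197 on the minus strand, and their start sites lie 7, 0 and 18 bases from the GENCODE gene start. Capitals mark the TCF/LEF core CTTTG or its reverse complement CAAAG, and the SOX core ACAAT or its reverse complement ATTGT.
Tectb: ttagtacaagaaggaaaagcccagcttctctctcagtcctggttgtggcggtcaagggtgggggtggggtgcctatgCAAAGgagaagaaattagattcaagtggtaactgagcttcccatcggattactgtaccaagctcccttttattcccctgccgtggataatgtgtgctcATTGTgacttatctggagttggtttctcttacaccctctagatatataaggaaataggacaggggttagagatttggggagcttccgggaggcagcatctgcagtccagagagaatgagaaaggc
Otog: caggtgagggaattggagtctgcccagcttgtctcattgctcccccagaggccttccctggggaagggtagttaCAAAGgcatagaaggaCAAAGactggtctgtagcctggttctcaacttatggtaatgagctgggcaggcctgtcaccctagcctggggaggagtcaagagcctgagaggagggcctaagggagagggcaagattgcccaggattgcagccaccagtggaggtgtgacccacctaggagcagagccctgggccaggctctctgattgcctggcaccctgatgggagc
Tecta: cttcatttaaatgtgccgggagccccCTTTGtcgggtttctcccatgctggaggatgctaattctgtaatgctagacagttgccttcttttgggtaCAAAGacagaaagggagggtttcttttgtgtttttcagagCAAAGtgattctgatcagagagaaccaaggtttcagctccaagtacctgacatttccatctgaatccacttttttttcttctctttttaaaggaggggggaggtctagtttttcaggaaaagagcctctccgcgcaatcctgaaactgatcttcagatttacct
The SOX core ACAAT was present in the Tectb window only, 1 time and 75 bases before the start site (position -75), and 31.02% of all 32851 RefSeq windows of this length hold it on either strand. CTTTG was found 1 time in the Tectb window, 2 times in that of Otog and 3 times in the printed one of Tecta, while the other RefSeq window of Tecta, whose start site lies 1761 bases from the GENCODE start, held none, and 53.9% of all windows hold it. The GATA core TGATAA (9.05% of windows), the E-box CAGCTG (16.3%) and TATAAA (13.6%) had no match in the windows printed. A match is a run of letters and not a measured binding site.

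After filtering, 92.6% of the cells were retained, and the reads of retained cells summed to between 26391412 and 72483565 per culture. Cells are in 2 deposited tables of equal size, the first with Day 1 culture 1, Day 3 culture 1 and Day 7 cultures 1 to 4, and table and day therefore overlap in part. Epithelial markers (Epcam, Cdh1, Cldn6, Sox2) summed to between 1161 and 2841 CPM in each culture, whereas endothelial markers reached at most 0.452 CPM, with Pecam1 and Kdr at 0 reads, and immune markers at most 3.85 CPM. Mesenchymal markers summed to between 0.458 and 42.2 CPM, hair cell markers to between 0 and 113.3 CPM, and glial markers, most of them reads of Sox10, to between 43.8 and 93.5 CPM. The share of cycling cells, those with a read in at least 3 of 6 mitotic genes, was between 15.3% and 23.7% in the Day 1 cultures, between 54.2% and 66.7% on Day 3 and between 25.3% and 86.96% on Day 7.

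The tectorins were the leading matrix genes of the 5 on Day 1. Divided by transcript length, Tectb was at 3047 ± 987 CPM per kb on Day 1 (SD, n = 3), Tecta at 316.9 ± 116.7, Otoa at 23.7 ± 11.3, Otog at 16.99 ± 4.30 and Otogl at 3.44 ± 1.07. The cultures of Otoa and Otog overlapped on this scale and the other neighbours in the order did not. On Day 3 the order was the same, with Tectb at 1329 ± 754.9, Tecta at 192.9 ± 40.1, Otoa at 49.2 ± 12.4, Otog at 7.82 ± 2.12 and Otogl at 1.59 ± 0.468 CPM per kb (n = 3), and no neighbours overlapped. By Day 7 the levels per kb of the tectorins overlapped, 253.7 ± 147.2 for Tectb and 210.6 ± 61.9 for Tecta (n = 5). Otoa (15.2 ± 21.97), Otog (6.20 ± 1.77) and Otogl (4.13 ± 2.49) also overlapped with each other on Day 7.

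β-tectorin showed the largest change of the 5 genes. In CPM of a culture, Tectb was at 6625, 11406 and 6882 in Day 1 cultures 1 to 3, at 1592, 5705 and 3564 in Day 3 cultures 1 to 3, and at 360, 536.4, 803, 416.8 and 1341 in Day 7 cultures 1 to 5. No Day 7 culture reached the lowest culture of Day 1 or of Day 3, and no Day 3 culture reached the lowest of Day 1. Tectb fell by 3.59 ± 0.46 (SE) on the log2 scale between Days 1 and 7, with an edgeR adjusted p = 0.00166, and fell by 2.39 ± 0.44 between Days 3 and 7, with an edgeR adjusted p = 0.0289. The log2 value of -1.20 ± 0.51 between Days 1 and 3 did not pass (edgeR adjusted p = 0.513). Leaving out any 1 culture kept the adjusted p of the first fall between 0.000924 and 0.00897, but the fall after Day 3 missed the threshold when Day 3 culture 2 or 3, or Day 7 culture 1, 2 or 4, was left out (from 0.0556 to 0.141 as edgeR adjusted p). Within the first table alone the log2 fold changes of Tectb were -3.68 for Day 7 against Day 1 (edgeR adjusted p = 0.0405) and -1.58 against Day 3 (0.627), and within the second table -2.77 (0.0408) and -1.77 (0.150), where a day with 1 culture was taken to vary like the others.

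**Figure D1:**
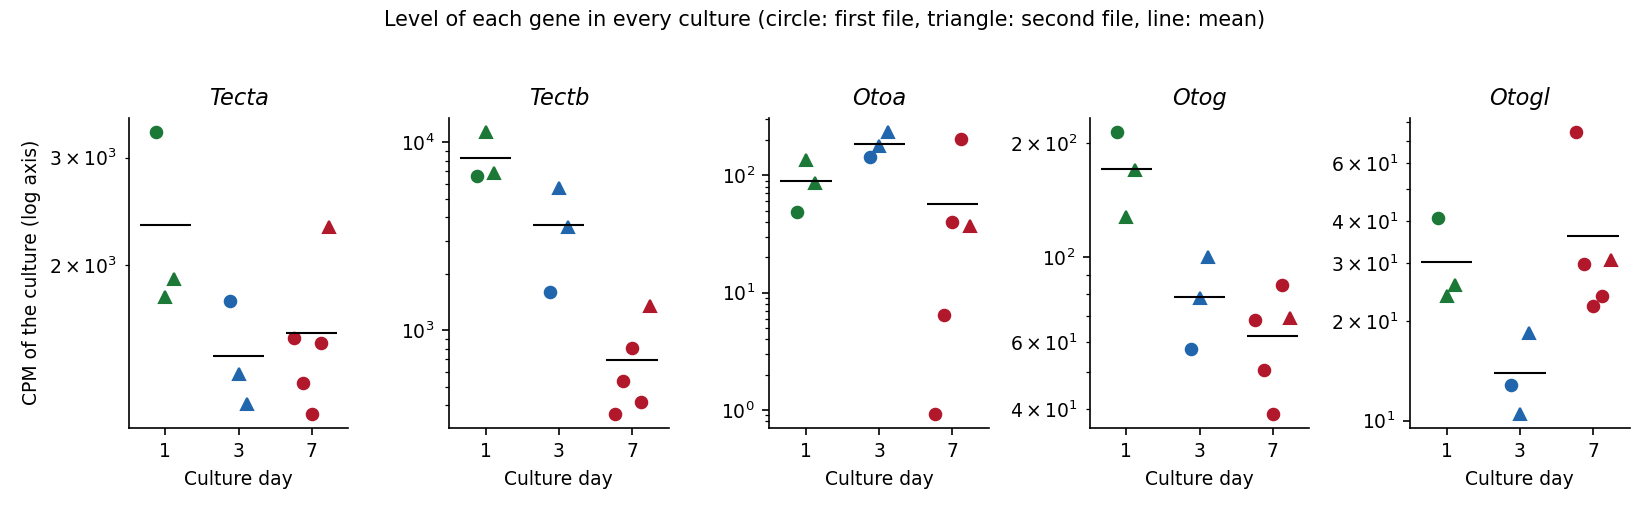
CPM of each gene (log axis, a separate scale per gene) in the 3 Day 1, 3 Day 3 and 5 Day 7 cultures, with circles for the first deposited table, triangles for the second and a line at the mean. Tectb runs from 6625 to 11406 CPM on Day 1 and from 360 to 1341 on Day 7, while the Tecta cultures of those days overlap.

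No comparison of α-tectorin passed. Tecta was at 3312, 1767 and 1898 CPM in the Day 1 cultures, at 1745, 1322 and 1180 on Day 3, and at 1515, 1279, 1138, 1485 and 2309 on Day 7. The Day 3 cultures were all below those of Day 1, by a margin of 1767 against 1745 CPM, and Day 7 culture 5 was above Day 1 cultures 2 and 3. On the log2 scale Day 3 differed from Day 1 by -0.72 ± 0.30 (SE), Day 7 from Day 1 by -0.59 ± 0.26 and Day 7 from Day 3 by 0.13 ± 0.26, with edgeR adjusted p = 0.499, 0.189 and 0.936. Day 1 culture 1 held the highest Tecta level and the lowest Tectb level of its day.

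Otogelin also fell. Otog was at 214.3, 127.9 and 170 CPM on Day 1, at 57.4, 78.1 and 100.1 on Day 3, and at 68.4, 50.6, 38.8, 84.5 and 69.2 on Day 7. Both later days lay below every Day 1 culture and overlapped with each other. Otog fell by 1.45 ± 0.27 (SE) on the log2 scale between Days 1 and 7, with an edgeR adjusted p = 0.00821, and this call was kept without any 1 culture (adjusted p up to 0.0413). Day 3 differed from Day 1 by -1.12 ± 0.31 and Day 7 from Day 3 by -0.33 ± 0.27 in log2, neither past the threshold (0.260 and 0.742 as edgeR adjusted p). In the separate tables the Day 7 against Day 1 value was -1.87 (edgeR adjusted p = 0.152) and -1.10 (0.187), in the same direction with the call lost.

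Otogelin-like, in contrast with its relative, was lowest on Day 3. Otogl was at 40.9, 23.9 and 25.7 CPM on Day 1, at 12.8, 10.49 and 18.5 on Day 3, and at 74.8, 29.8, 22.2, 23.8 and 30.6 on Day 7. No Day 3 culture reached a culture of either other day, and Days 1 and 7 overlapped. None of its comparisons passed in edgeR: the log2 values were -1.12 ± 0.45 (SE) from Day 1 to Day 3, 1.38 ± 0.42 from Day 3 to Day 7 and 0.26 ± 0.40 from Day 1 to Day 7, with adjusted p = 0.483, 0.177 and 0.749. DESeq2 called the second of these (adjusted p = 0.0237).

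Otoancorin spread widest over the Day 7 cultures. Otoa was at 48.95, 133.9 and 85.5 CPM on Day 1, at 143.2, 177.8 and 235.5 on Day 3, and at 0.929, 6.40, 40, 202.3 and 37.2 on Day 7. Each Day 3 culture was above each Day 1 culture, and Day 7 ran from near 0 in culture 1 to a level within the Day 3 range in culture 4. In log2, Day 3 differed from Day 1 by 1.05 ± 1.16 (SE), Day 7 from Day 1 by -0.64 ± 1.02 and Day 7 from Day 3 by -1.69 ± 1.01, with edgeR adjusted p = 0.866, 0.760 and 0.593. Without Day 7 culture 4 the values of Day 7 against Days 1 and 3 were -2.13 and -3.13 (edgeR adjusted p = 0.166 and 0.149), and with a block for replicate number, which leaves out Day 7 cultures 4 and 5, they were -3.37 and -4.40 (0.0570 and 0.0698), none of them a call.

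Set against all 17466 genes tested, 0 of the 5 were called for Day 3 against Day 1, where edgeR called 0.0115% of genes. Tecta, Tectb, Otog and Otogl had an unadjusted p under 0.05 there, as did 9.26% of all genes. With DESeq2 1 of the 5 was called (Otog, adjusted p = 0.0184), and 1.48% of all genes. The cultures of those days did not overlap for 5 of the 5, with Otoa higher and the other 4 lower on Day 3, and this held for 18% of all genes. For Day 7 against Day 1, 2 of the 5 were called (Tectb and Otog, both lower) against 7.11% of all genes, and the same 2 did not overlap, against 17.8%. For Day 7 against Day 3, 1 of the 5 was called (Tectb) against 0.968%, and 2 did not overlap (Tectb lower, Otogl higher) against 8.13%. The 3 comparisons share cultures in pairs and are not independent of each other.

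Other values moved with the day as well. The summed supporting cell markers went from between 273.1 and 377.9 CPM on Day 1 to between 85.02 and 124.96 on Day 7, a sum carried by Lgr5 and Slc1a3, which were called lower (log2 fold changes -2.39 and -1.33, edgeR adjusted p = 0.00158 and 0.00353), and Epcam and Cdh1 were called lower too (-0.86 and -1.48, adjusted p = 0.0164 and 0.0242). The other 4 supporting cell genes were not called, with Fgfr3 and Hes5 at 0.91 and 2.09 and Prox1 and Ngfr at -0.82 and -1.88. Hair cell markers went from between 12.8 and 113.3 CPM on Day 3 to at most 4.53 CPM on Day 7, where 6 of 6 were lower and 2, Pou4f3 and Pvalb, were called (edgeR adjusted p = 0.0418 and 0.0465). The median mitochondrial share of a cell was between 2.72% and 4.18% in the Day 1 cultures, between 3.23% and 4.46% on Day 3 and between 3.897% and 6.76% on Day 7. The part of these values in the results was not tested. Among non-cycling cells alone, an alternative added after the data had been seen, the Day 7 against Day 1 log2 fold change was -2.90 for Tectb (edgeR adjusted p = 0.00676) and -0.76 for Otog (0.200), so that the call of Otog was lost, and Tectb was -2.12 for Day 7 against Day 3 (0.0418). In sums over a culture, fewer cells with a transcript and less transcript per cell cannot be told apart, which is why the cells were also taken singly, each thinned to 200000 reads.

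The ratio of the tectorins needs no scaling for depth or length between days. Summed over a culture there were 2.00, 6.45 and 3.63 Tectb reads per Tecta read in the Day 1 cultures, 0.912, 4.32 and 3.02 on Day 3, and 0.238, 0.419, 0.705, 0.281 and 0.581 on Day 7. All 5 Day 7 cultures were below all cultures of Days 1 and 3. The mean log2 ratio was lower on Day 7 than on Day 1 by a difference of -3.14 and than on Day 3 by -2.48, each with an exact two-sided permutation p = 0.0179, the smallest that 3 against 5 cultures can give, and 0.0268 adjusted over the 3 pairs of days. Leaving out any culture of Day 1 or Day 3 brought the adjusted p of both to between 0.0536 and 0.0714. So few cultures cannot give a lower value, so neither could pass, while leaving out a Day 7 culture gave 0.0429. Day 3 against Day 1 differed by -0.66 (exact permutation p = 0.600, where 3 against 3 cannot go below 0.1). Culture 1 of Days 1 and 3, which are in the first table, had the lowest ratio of its day. Within the first table the differences were -2.42 and -1.28 and within the second -3.06 and -2.64 for Day 7 against Days 1 and 3, in the same direction, with 1 culture in at least 1 of the groups so that no test can pass. In non-cycling cells they were -2.79 and -2.30 (exact permutation p adjusted = 0.0536 for both).

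Most cells held both transcripts. At 200000 reads, Tecta and Tectb were both read in 98.9% of Day 1 cells, 91.4% of Day 3 cells and 87.2% of Day 7 cells. Tecta without Tectb occurred in 2, 14 and 38 cells of those days, and Tectb without Tecta in 0, 1 and 0 cells. The median cell was at 1985, 1232.5 and 1410 CPM of Tecta on Days 1, 3 and 7, and at 6435, 1532.5 and 170 CPM of Tectb. On Day 7 there were 33 cells with at least 100 Tecta reads and no Tectb read, 7 on Day 3 and 0 on Day 1. A count of 0 would allow a share of up to 1.71% if the Day 1 cells were independent, which cells of 1 culture are not. The reverse, at least 100 Tectb reads and no Tecta read, was seen in no cell of any day.

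**Figure D2:**
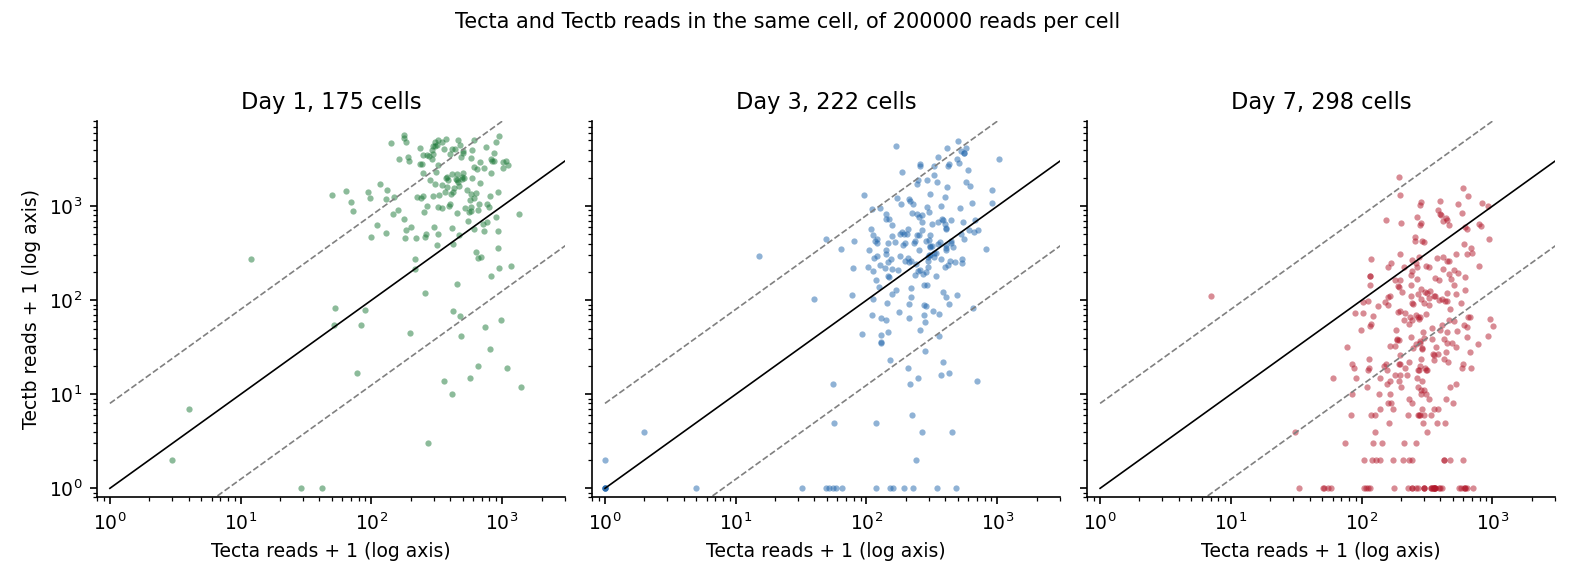
Tecta reads (x axis) and Tectb reads (y axis) of each cell, both plus 1 and on log axes, for the cells of Days 1, 3 and 7 thinned to 200000 reads; the solid line marks equal reads and the dashed lines an 8-fold difference. On Day 7 Tectb reads, not divided by length, reach far below Tecta reads, with 150 cells in which they are under 1/8 of them.

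Within a cell, the log2 ratio of Tectb to Tecta reads (1 read added to each) had a median of 0.73, 2.41 and 1.94 in the Day 1 cultures, -0.64, 1.59 and 0.96 on Day 3, and -3.97, -4.39, -1.36, -3.61 and -2.17 on Day 7. The median Day 1 cell thus had more Tectb than Tecta reads and the median Day 7 cell fewer, in every culture of those days; these are reads not divided by length, and the Tectb transcript is the shorter. The mean of the culture medians was 1.69 ± 0.87 on Day 1 (SD, n = 3), 0.64 ± 1.15 on Day 3 (n = 3) and -3.10 ± 1.28 on Day 7 (n = 5). Day 7 differed from Day 1 by -4.79 and from Day 3 by -3.74 (exact permutation p = 0.0179 for both, 0.0268 adjusted over 3 pairs), and Day 3 from Day 1 by -1.05 (exact permutation p = 0.300). Thinned to 100000 or 500000 reads the Day 7 differences were -4.74 and -3.68, and -4.87 and -3.79, with an adjusted exact permutation p = 0.0536, so that they no longer passed. Nor did they without any 1 culture of Day 1 or Day 3 or without Day 7 culture 1, 4 or 5 (adjusted exact permutation p between 0.0536 and 0.0857). With a Day 1 or Day 3 culture left out, too few cultures remain for either difference to pass. Tectb reads exceeded Tecta reads in between 61.5% and 88.2% of the cells of a Day 1 culture, between 28.6% and 78.8% on Day 3 and between 3.85% and 22.7% on Day 7. Single cells ran from a log2 ratio of -6.87 to 5.04 on Day 1, from -8.92 to 4.69 on Day 3 and from -9.48 to 3.97 on Day 7.

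**Figure D3:**
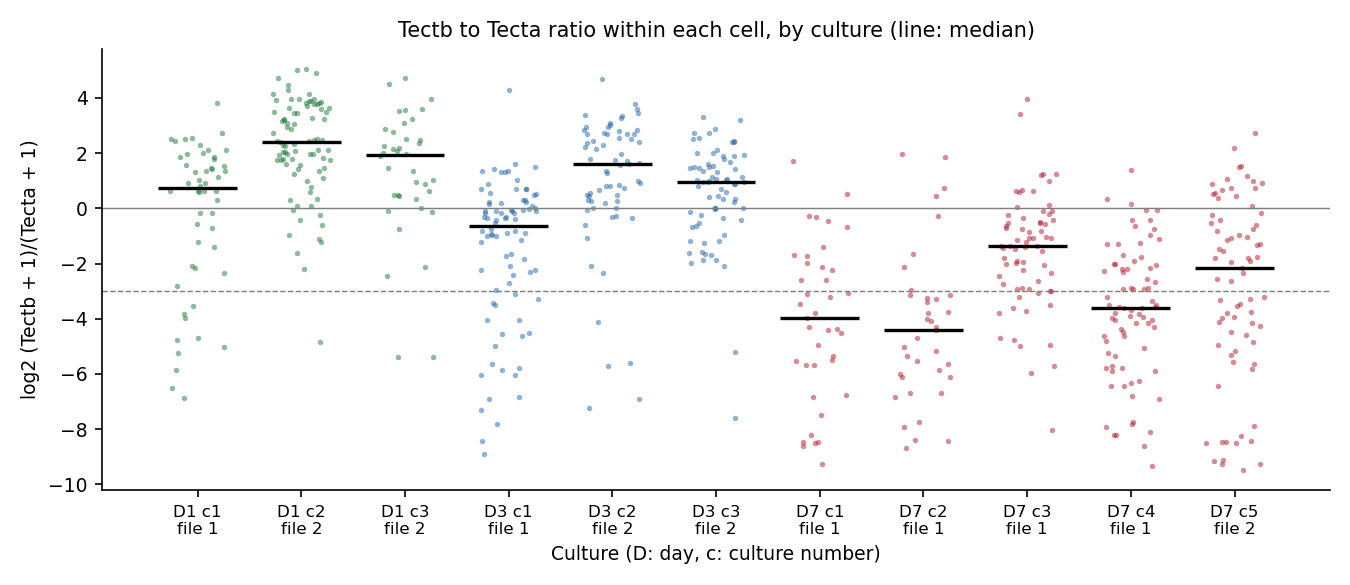
Log2 ratio of Tectb to Tecta reads within each cell (1 read added to each), by culture and deposited table, with 1 point per cell and a line at the culture median; the dashed line marks an 8-fold lower Tectb. Medians of the Day 7 cultures lie between -4.39 and -1.36, below every median of Days 1 and 3, and each culture spans several log2 units.

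Cells in which the tectorins parted were counted as those with at least 10 Tecta reads and Tectb reads below 1/8 of Tecta reads. Reads were not divided by length, and the Tectb transcript (2725 bases) is shorter than that of Tecta (7338 bases). Per kb, this class therefore asks for a smaller difference than its mirror below. Mean levels on Day 7 were 253.7 CPM per kb for Tectb and 210.6 for Tecta. There were 13 on Day 1 (7.43% of its cells), 28 on Day 3 (12.6%) and 150 on Day 7 (50.3%). By culture the share was 19.2%, 1.18% and 5.26% on Day 1, 25%, 7.58% and 2.78% on Day 3, and 64.1%, 81.1%, 21.7%, 58.97% and 45.3% on Day 7. Day 7 culture 3, at 21.7%, was above all of Day 1 and below Day 3 culture 1. The difference of 45.7 percentage points between Days 7 and 1 had an exact permutation p = 0.0357 and that of 42.5 between Days 7 and 3 one of 0.0536, both 0.0804 after adjustment over 3 pairs, so neither passed. The mirror class, with Tecta below 1/8 of Tectb, held 43, 12 and 2 cells on Days 1, 3 and 7 (34 of the 43 from Day 1 culture 2), and its differences did not pass either (adjusted exact permutation p between 0.0804 and 0.300).

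The spread of the ratio between cells of 1 culture was wide on each day. Its SD was between 1.80 and 2.76 log2 units in the Day 1 cultures, between 1.83 and 2.68 on Day 3 and between 2.06 and 3.32 on Day 7, and the day means of 2.28, 2.32 and 2.68 did not differ beyond the spread (exact permutation p between 0.321 and 0.900). For pairs of genes given as a scale, the mean SD over cultures on Days 1, 3 and 7 was 2.40, 2.44 and 2.80 for Otogl with Otog, 2.30, 2.08 and 2.14 for the connexins Gjb2 with Gjb6, 1.89, 1.73 and 1.87 for Epcam with Cdh1, and 1.22, 0.79 and 0.69 for Actb with Eef1a1. The depth of these genes differs, with a median of 0 Otogl reads but 1287 Tectb reads per Day 1 cell, so the SDs are set side by side and not compared. Across the cells of a culture the rank correlation of Tecta with Tectb was between 0.08 and 0.30 on Day 1, between 0.53 and 0.56 on Day 3 and between 0.11 and 0.39 on Day 7, over 37 to 85 cells that share a culture and a thinned depth.

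Tectb reads were more concentrated in the Day 7 cultures than in those of Day 1, with no test made. The 10% of cells with the most held between 24.8% and 36.02% of the Tectb reads of a Day 1 culture, between 35.8% and 53.8% on Day 3 and between 42.4% and 87.9% on Day 7. For Tecta the same share stayed between 19.2% and 26.7% over all 11 cultures. In Day 7 culture 2, where the concentration was highest, 4 of 37 cells held 87.9% of the Tectb reads, with 1120 in the richest cell and a median of 6.

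The Day 7 cells with parted tectorins were set beside the other cells of their culture. Their median Tecta was between 1127.5 and 2187.5 CPM per culture and that of the other cells between 967.5 and 2380 CPM, lower in 3 and higher in 2 of 5 cultures. Median Tectb, which the choice of cells fixes, was between 25 and 65 CPM against between 480 and 3160 CPM. Median unthinned depth was lower in the parted cells of 4 of 5 cultures (786514 to 943108 against 813427 to 1011530 reads) and the share of mitochondrial reads higher in 4 of 5. The cycling share was higher in 3 and lower in 2 of 5. A read of Otog was present in between 40% and 72% of the parted cells and between 55.6% and 85.7% of the others, lower in 5 of 5 cultures, while Otoa was lower in 4 and higher in 1, and Otogl lower in 3 and higher in 2. These are descriptions with no test, and the part of depth or cell cycle in them was not tested.

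The other 3 genes were read in only some cells. Otoa had a read in 44.2%, 57.6% and 44.7% of the cells of the Day 1 cultures, 66.7%, 65.2% and 72.2% on Day 3, and 7.69%, 13.5%, 27.5%, 60.3% and 17.3% on Day 7. All Day 7 cultures were below all Day 3 cultures, culture 4 by the least. Otog was read in between 81.6% and 88.5% of cells on Day 1, between 52.4% and 72.2% on Day 3 and between 52.2% and 76.9% on Day 7, and Otogl in between 38.8% and 63.5%, between 25% and 33.3% and between 32.1% and 66.7%. Tectb was read in between 97.4% and 100% of Day 1 cells and between 74.4% and 97.1% of Day 7 cells, and Tecta in all cells of Days 1 and 7 and at least 94.4% on Day 3. Of 15 comparisons of detection between days, 0 passed after adjustment (lowest adjusted exact permutation p = 0.201), and 2 had an unadjusted p under 0.05, namely Otog for Day 7 against Day 1 (0.0179) and Otoa for Day 7 against Day 3 (0.0357).

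**Figure D4:**
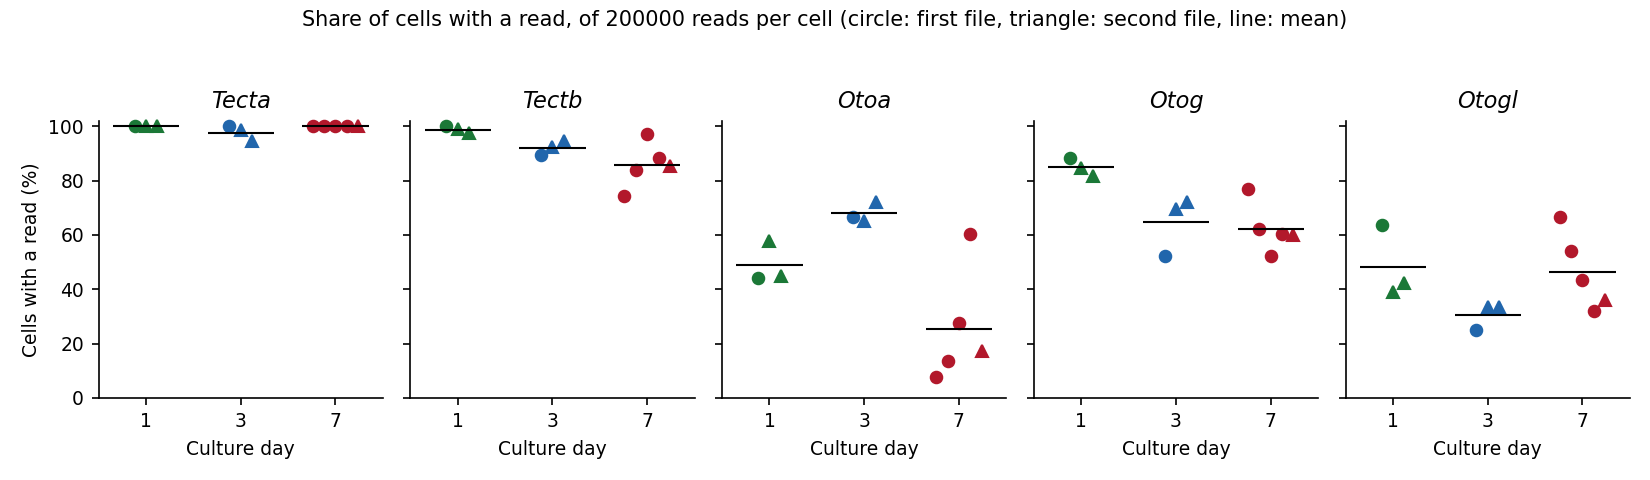
Percent of cells with at least 1 read of each gene at 200000 reads per cell, by culture and day, with circles for the first deposited table, triangles for the second and a line at the mean. Tecta is read in nearly every cell, while Otoa runs from 7.69% to 60.3% over the Day 7 cultures.

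Otoa reads sat in few cells where the gene was low. In Day 7 cultures 1, 2, 3 and 5 the 10% of cells with the most held between 89.5% and 100% of its reads, against 41.9% in culture 4. The same share was between 54.4% and 81.2% on Day 1 and between 51.1% and 59.2% on Day 3. In Day 7 culture 1 fewer cells had a read than the 4 cells counted, so its 100% was fixed. Few reads in all raise this share, and the part of that in it was not tested. Among pairs of the 5 genes, the rank correlation across cells was above 0 in 11 of 11 cultures for Tecta with Tectb, Tecta with Otog, Tecta with Otogl and Tectb with Otog, and the largest median over cultures was 0.39 for Tectb with Otoa. Otog with Otogl had a median of 0.14 and was above 0 in 8 of 11 cultures. Single cultures reached 0.67, for Tecta with Otog, and these cells share a culture and a thinned depth.

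As a share of reads, 4 of the 5 transcripts were lower in cycling cells than in other cells of the same culture on Days 3 and 7. This was compared in the 8 cultures of Days 3 and 7, with at least 5 cells in each class, as the log2 ratio of CPM plus 1. Day 1 was left out by the choice of days and not for lack of cells. Its cultures held 11, 13 and 9 cycling cells, so the values do not cover Day 1. Otog was lower in cycling cells in 8 of 8 cultures by a mean log2 difference of -1.41 ± 0.73 (SD, n = 8, exact sign-flip permutation p = 0.00781, the smallest possible, adjusted p = 0.0156). Tecta was lower in 8 of 8 by -0.62 ± 0.19 (adjusted exact permutation p = 0.0156), with values from 875 to 1894 CPM in cycling and from 1395 to 2592 CPM in other cells. Tectb was lower in 8 of 8 by -1.48 ± 1.39 (adjusted exact permutation p = 0.0156), and Otoa in 7 of 8 by -1.27 ± 0.85 (0.0234). Otogl went down in 4 and up in 4 cultures, with a mean of 0.20 ± 1.63 (exact permutation p = 0.734). Only these 5 genes and the tectorin ratio were compared in this way. The share of all genes that were lower in cycling cells is therefore not known, and a difference particular to these genes cannot be read from the values.

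**Figure D5:**
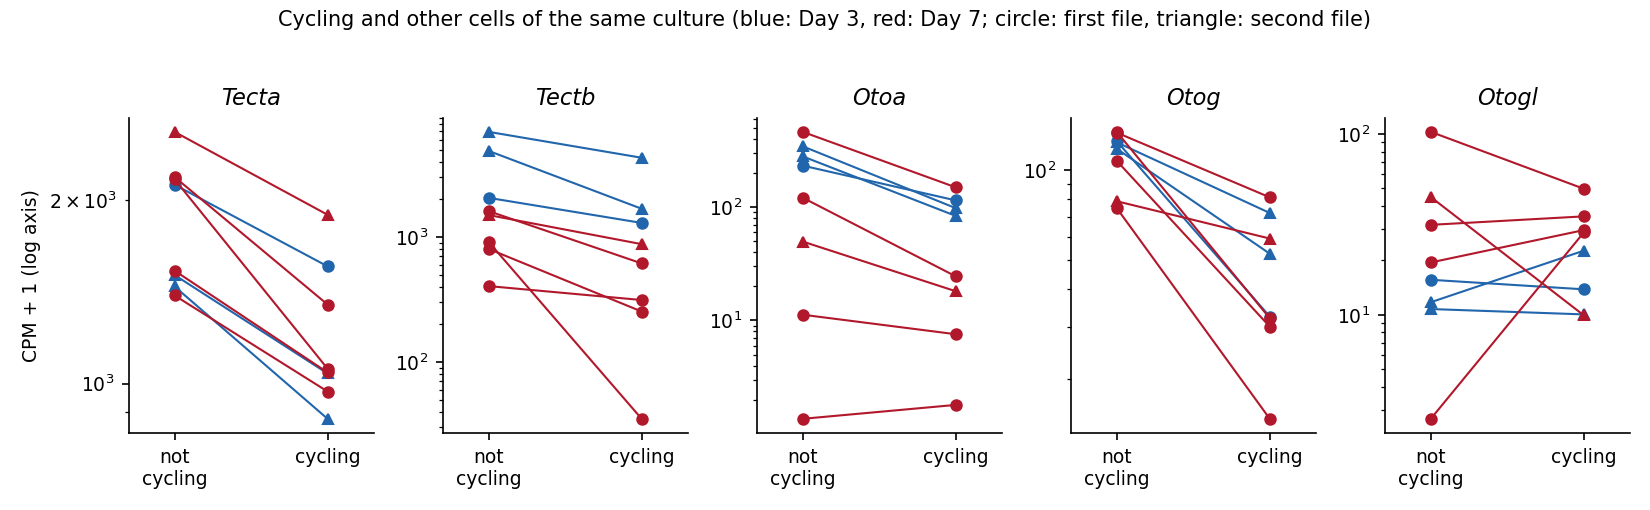
CPM plus 1 (log axis, a separate scale per gene) in the non-cycling and cycling cells of each Day 3 (blue) and Day 7 (red) culture, joined by a line per culture. Lines of Tecta, Tectb and Otog go down in all 8 cultures and those of Otogl in 4.

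The value for Tectb rests in part on Day 7 culture 2, where 16 cycling cells had 34.1 CPM and 21 other cells 914 CPM. Without that culture the mean was -1.01 (adjusted exact permutation p = 0.0313). When the mean of log2 CPM per cell was used in place of pooled CPM, Tectb was lower in 6 of 8 cultures by -0.57 (adjusted exact permutation p = 0.234), so its difference no longer passed, while those of Tecta, Otog and Otoa did. The Tectb to Tecta ratio was lower in cycling cells in 7 of 8 cultures, by -0.85 ± 1.44 (exact permutation p = 0.0625, adjusted 0.0750), and by -0.06, in 4 of 8, with log2 values averaged per cell. No gene's cycling difference was found to differ between Days 3 and 7 (lowest adjusted exact permutation p = 0.964 over 6 tests). Between cells with and without a tdTomato read, in 10 cultures, 0 of 6 differences passed; Otogl was lower in tdTomato-read cells in 8 of 10 cultures by -1.09 ± 1.14 (exact permutation p = 0.0176, adjusted 0.105).

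Beyond these 5, a list of 14 genes was taken as partners of the tectorial membrane matrix, of which 10 could be tested. It also holds Oc90, a protein of the otoconia and not of that membrane. For Day 7 against Day 1, 2 of the 10 fell and 0 rose, where edgeR called 7.11% of all genes, and all 10 had a log2 fold change below 0, with a median of -0.85 against 0.00 over all genes. Col2a1, the fibrillar collagen of the membrane, went from between 1688 and 2347 CPM on Day 1 to between 415.8 and 781 on Day 7, a log2 difference of -1.56 with an edgeR adjusted p = 0.00168. The other was Oc90, an otoconial protein, which was at 1.16, 0.316 and 14.2 CPM in the Day 1 cultures and had 0 reads in each Day 7 culture. For Day 7 against Day 3, with 0.968% of all genes called, 2 of the 10 rose: Col11a2 (log2 fold change 2.97, edgeR adjusted p = 0.0410) and Col9a1 (1.36, adjusted p = 0.0497), both chains of collagens that join type II fibrils. Both were lowest on Day 3, with mean CPM on Days 1, 3 and 7 of 29.3, 2.27 and 17.9 for Col11a2 and 619.2, 173.6 and 446.3 for Col9a1. Col11a2 ran from 6.06 to 40.4 CPM over the Day 7 cultures. Between Days 1 and 3 none passed in edgeR (6 had an unadjusted p under 0.05, and DESeq2 called 5), with 9 of 10 lower and a median of -1.60, where the median over all genes was 0.02. Ceacam16, which binds the tectorins, had 2 reads in all. Of 16 relatives by protein family 5 could be tested, and 1 was called, the gel-forming mucin Muc2, at 6.07, 0.837 and 0.303 CPM in the Day 1 cultures and with 1 read in all of Day 7, lower for Day 7 against Day 1. Of 11 genes known from the greater epithelial ridge, among them Epyc, Crabp1 and Gjb2, edgeR called none in the 3 pairs of days. From Day 1 to Day 3, Day 1 to Day 7 and Day 3 to Day 7 in turn, 1, 3 and 4 had an unadjusted p under 0.05, DESeq2 called 0, 2 and 3, and the median log2 differences were -0.39, 0.00 and 1.02. Over all genes and in the same order, 9.26%, 23.6% and 11.8% had an unadjusted p under 0.05, and DESeq2 called 1.48%, 13.3% and 3.66%.

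The genes whose level over the 11 cultures was most like that of each gene were ranked by Pearson correlation of log2 CPM, among 6619 genes with a mean of at least 20 CPM. For Tectb they were Cpxm2 (r = 0.97), S100a6, Rnasek, S100a10 and Lgals1 (r = 0.96 for the last). Lgals1, galectin-1, went from 938 to 388.1 to 71.3 mean CPM on Days 1, 3 and 7, and S100a6, a calcium-binding protein, from 314.7 to 146.9 to 16.9. Tecta was most like Sept2 (0.91), Psme4, Kidins220, March6 and Sulf1, and Otog most like Nectin3 (0.96), Atxn2, Slc46a1, Jam3 and Ppm1a. Otoa was most like Prss35 (0.93), Slc9a2, Sars, Kctd10 and Ccnd2, and Otogl most like Robo2 (0.92), Insr, Zmiz1, Pank3 and Sec63. No gene appears in more than 1 of these 5 lists. The cultures share days and tables, so the values describe these 11 points.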

How the data were processed

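The authors deposited expected counts, which are RSEM's estimates of the reads of each gene, with no scaling, for single cells. Per the submitters' processing notes, STAR 2.5.3a, RSEM 1.3.0 and the mm10 or GRCm38 build were used. Counts were rounded to whole numbers, and cells with at least 50000 reads, at least 1500 genes and at most 20% mitochondrial reads were kept and summed per culture. CPM is scaled by TMM. Days were compared with edgeR 4.0.16 in R 4.3.3 (quasi-likelihood F-test, filterByExpr, 1 fit over 11 cultures, Benjamini-Hochberg adjustment over 17466 genes, called under 0.05). The fit was also run on simulated counts with large changes and no difference between the deposited tables, which does not measure its error on these data. DESeq2 1.42.0 and limma 3.58.1 were alternatives, with other scalings, filters and left-out cultures. Measures per cell used cells thinned to 200000 reads and exact permutation tests over cultures, two-sided. Reads are copies without molecular identifiers, so the limit given for a count of 0 covers counting error only. That limit also takes the cells of a day as independent, although they share cultures.

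The 5 genes and all lists were chosen with earlier results of these data known. Named beside them are up to 4 called genes per list and the 5 most alike genes per member, leaving out predicted genes; Lgr5, Slc1a3, Epcam, Cdh1, Ceacam16 and the examples given for uncalled lists were named for their role in the text.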

Additional observations from a re-analysis of the deposited data

Results flagged for a closer look

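In groups of 4 to 10 cultures, the gap of the highest or lowest culture to its neighbour was set against the range of the group, which was done for 32 groups of values. In 6 of them a culture stood apart. Chance marks about 1 in 20 groups of independent, normally distributed values. These groups share cultures and values and are not all of that kind, so the number marked cannot be set against that rate. Otoa was at 202.3 CPM in Day 7 culture 4, with the other 4 Day 7 cultures between 0.929 and 40 CPM. Otogl was at 74.8 CPM in Day 7 culture 1, with the others between 22.2 and 30.6 CPM. The share of cells with Tecta below 1/8 of Tectb was 2.90% in Day 7 culture 3, which is 2 cells, and 0 in the other Day 7 cultures. A group in which all values but 1 are 0 is always marked. The log2 difference of Tecta between cycling and other cells was -1.03 in Day 7 culture 1, beyond the other 7 cultures. In Day 7 culture 2 the same difference was -4.71 for Tectb and -4.18 for the Tectb to Tecta ratio, with 4 of its 37 cells holding 87.9% of the Tectb reads.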

How the results depend on the processing

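Over 42 results and 856 alternative values, 87.97% were kept, where a count of calls was kept if it was equal or similar. Every other result was kept if it held its direction and its side of the threshold. A result that had not passed was thus kept by not passing again. Among those that had passed, the ratio of summed reads for Day 7 against Days 1 and 3 was kept in 8 of 18 alternatives each. The median within cells was kept in 5 of 18 each, Tectb for Day 7 against Day 3 in 19 of 27 and Otog for Day 7 against Day 1 in 24 of 27. In cycling cells Tecta, Otoa and Otog were kept in 10 of 10 and Tectb in 9 of 10. The fall of Tectb from Day 1 to Day 7 kept both under all 27 alternatives (-3.97 to -2.77). DESeq2 added a call of Otog for Day 3 against Day 1 (-1.19, so 1 gene called) and of Otogl for Day 7 against Day 3 (1.38, so 2 called). Labels share replicate numbers, but same-numbered cultures did not deviate together (correlations from -0.01 to 0.06). With the replicate block on cultures 1 to 3, Tecta was called for Day 7 against Day 1 (-0.84), its Day 7 against Day 3 value was -0.10, and the ratio of summed reads differed by -3.13 and -2.47, where 3 pairs cannot pass.

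In the first table alone, Day 7 against Day 1 gave -1.34 for Tecta, 0.32 for Otoa, -1.87 for Otog and -0.17 for Otogl (1 gene called), and Day 7 against Day 3 gave -0.37 for Tecta, -1.58 for Tectb and 0.077 for Otog (0 called). The second table alone gave 0.34 for Tecta, -1.10 for Otog (1 called) and, against Day 3, -1.77 for Tectb (0 called). Fitting only Days 3 and 7 gave -2.39 for Tectb (0 called). Ratios of summed reads were -2.42 and -1.28 in the first table and -3.06 and -2.64 in the second, and the medians within cells -4.06 and -2.70, and -4.34 and -3.44, for Day 7 against Days 1 and 3; with so few cultures no test can pass. In non-cycling cells Otoa was 0.19 and Otog -0.76 for Day 7 against Day 1 (1 called), with ratios of -2.79 and -2.30. Thinned to 100000 reads the medians differed by -4.74 and -3.68, and thinned to 500000 by -4.87 and -3.79, both adjusted p = 0.0536. The SD of the ratio changed sign for Day 3 against Day 1 at 100000 reads (-0.067), with 5 reads added (-0.18) and in the first table (-0.081), for Day 7 against Day 1 with 5 reads added (-0.043) and in the first table (-0.24), and against Day 3 in the first table (-0.16). Tectb in cycling cells was -0.57 with log2 values averaged per cell.

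Leaving out 1 culture moved Otogl for Day 7 against Day 1 between -0.18 and 0.49. For Day 7 against Day 3 it moved Tecta between -0.064 and 0.28 and Tectb between -2.77 and -1.90, and the number called between 0 and 1. Ratios of summed reads ran from -1.12 to 0.0025 (Day 3 against Day 1), -3.56 to -2.72 and -3.14 to -2.02 (Day 7 against Days 1 and 3), medians within cells from -5.27 to -4.43 and -4.38 to -3.26, with the Day 7 calls lost in 6 of the 11 leave-outs for summed reads and 9 of 11 for medians, and the SD for Day 3 against Day 1 from -0.20 to 0.29. The leave-outs of a Day 1 or Day 3 culture, counted in both, leave too few cultures for these Day 7 calls to be kept. The share with Tectb below 1/8 of Tecta ran from -3.38 to 8.56 (Day 3 against Day 1), 38.98 to 53.8 and 35.8 to 50.6 percentage points, and the mirror share from -29.9 to -10.9 and -7.63 to -1.40. In cycling cells Otogl ran from -0.26 to 0.54 and the tectorin ratio from -1.07 to -0.38. The number of tdTomato differences that passed ran from 0 to 1, and Otogl there from -1.32 to -0.84. Scaling by ERCC spike-ins was not run, since there were 47 such reads in all. The causes of these shifts were not tested. Detection of Otogl and Otoa, at few reads per cell, is limited by depth.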
